A study of Mus musculus with 7 samples.

Results

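Most P2 receptors sense nucleotides outside the cell, and 5 genes of this family by name, P2rx4, P2rx7, P2ry10, P2ry12 and P2ry14, were read here together with Panx1, the gene of a channel that lets ATP out. The 6 genes were chosen by name as receptors and a release channel, and all 6 were found among the 53465 Ensembl gene IDs of the count table by matching IDs to mouse symbols. RNA was sequenced from mouse liver cells sorted as CD4+CD25+, a gate that enriches regulatory T cells (Treg). KO_MCD stands for CD73 KO mice fed a methionine/choline-deficient diet for 4 weeks (3 libraries), WT_MCD for wild type C57BL/6 mice on that diet (2 libraries), and WT_NCD for wild type animals given normal control diet for the same time (2 libraries). The deficient diet is a widely used model of fatty liver with inflammation. The age and sex of the mice, the way CD73 was deleted, and whether a library holds 1 animal or a pool are not stated in the labels. The p-values therefore cover the variation among these libraries alone, and that variation may be technical.

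ATP leaves stressed or activated cells through channels such as pannexin-1 and acts on the same or neighbouring cells. P2X receptors are ion channels opened by ATP, while P2Y receptors couple to G proteins and answer to ADP, UTP, UDP-glucose or other ligands. The ectoenzymes CD39 and CD73 remove these signals by turning ATP and ADP into AMP and AMP into adenosine, which is why the P2 genes are of interest beside a CD73 knockout. In mouse T cells, strong P2X7 stimulation is known to cause cell death, and Treg are known to be sensitive to it.

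The libraries held 19731501 to 24398738 counts each, and levels are given as CPM, counts brought to a common library size with TMM factors for library composition. Nt5e, the gene of CD73, had 5.88, 14.5 and 6.43 CPM in KO_MCD, 177 and 87.6 CPM in WT_MCD, with 243 and 241 CPM in WT_NCD, so all 3 knockout libraries were below all 4 wild type libraries. Even this gene did not pass the adjusted threshold, with a log2 fold change of -3.88 (SE 0.51, edgeR adjusted p = 1) in KO_MCD against WT_MCD. All 8 T cell markers and all 8 Treg markers looked at were counted in every library, Foxp3 among them at 108 to 287 CPM. RNA of other cell types was present throughout. The summed level of 12 macrophage and Kupffer cell markers was 7408.2 to 12697 CPM in KO_MCD, 2415.9 and 32876.1 CPM in WT_MCD, with 10791.9 and 1179.5 CPM in WT_NCD, and Timd4 was at 0 in KO_MCD replicates 1 and 2. Lyz2 was most of this sum in every library, with 6151.4 to 11324.3 CPM in KO_MCD, 1836.6 and 26675.4 CPM in WT_MCD, with 7756.9 and 844.8 CPM in WT_NCD. WT_MCD replicate 2 stood apart, with the highest macrophage sum and the lowest sum of the 8 T cell markers, 3322.5 CPM against 4194.3 to 8845.1 CPM in the other libraries. In such bulk samples fewer cells of a type and less RNA per cell cannot be told apart.

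P2X7 and P2X4 are encoded by neighbours on chromosome 5 (GRCm38). P2rx7 (ENSMUSG00000029468) lies on the plus strand at 122643911 to 122691432 and P2rx4 (ENSMUSG00000029470) at 122707544 to 122729738, with 16111 bases between them. Their promoters are shown because the fitted differences of these neighbours between diets had opposite signs, although neither passed the adjusted threshold. RefSeq (GRCm38.p6) gives P2rx7 a second start 6456 bases downstream of the first, and gene counts do not separate RNA from the 2 starts. Each window runs 5′ to 3′ from 250 bases before to 50 bases after the start. Capitals mark AP-1 sites (TGANTCA, the same on both strands) and GC boxes (GGGCGG on either strand), which do not overlap each other here.
P2rx7 first start, chr5:122643677-122643976, plus strand: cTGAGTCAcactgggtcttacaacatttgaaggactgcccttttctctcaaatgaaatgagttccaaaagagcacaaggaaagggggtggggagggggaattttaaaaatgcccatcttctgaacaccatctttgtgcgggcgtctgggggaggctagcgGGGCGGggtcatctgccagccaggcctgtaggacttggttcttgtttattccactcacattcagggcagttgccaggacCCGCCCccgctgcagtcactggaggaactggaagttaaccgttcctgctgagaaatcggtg
P2rx7 second start, chr5:122650133-122650432, plus strand: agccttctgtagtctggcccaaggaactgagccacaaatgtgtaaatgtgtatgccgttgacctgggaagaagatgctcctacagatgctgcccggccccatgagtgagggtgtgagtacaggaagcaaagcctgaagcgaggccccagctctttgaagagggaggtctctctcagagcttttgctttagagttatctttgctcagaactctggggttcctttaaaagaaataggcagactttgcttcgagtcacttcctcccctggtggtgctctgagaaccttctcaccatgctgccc
P2rx4 start, chr5:122707294-122707593, plus strand: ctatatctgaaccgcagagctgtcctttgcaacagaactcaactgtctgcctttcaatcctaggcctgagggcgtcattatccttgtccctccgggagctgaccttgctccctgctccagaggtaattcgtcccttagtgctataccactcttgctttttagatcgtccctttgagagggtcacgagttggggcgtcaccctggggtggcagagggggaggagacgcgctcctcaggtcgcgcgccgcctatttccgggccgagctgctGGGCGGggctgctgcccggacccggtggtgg
The first P2rx7 window held 1 AP-1 site and 2 GC boxes, the second held neither, and the P2rx4 window held 1 GC box. Over the 11 windows RefSeq gives for the 6 genes, 4 windows of 3 genes (P2rx7, P2ry10 and P2ry14, whose own windows partly overlap) held an AP-1 site and 2 windows held a GC box. Of all 32851 mouse windows of this length, 7.81% held an AP-1 site and 35.7% a GC box. The P2rx4 and Panx1 windows had 18 and 25 CpG dinucleotides, the other 9 had 1 to 8, and the median over all windows was 7. These matches describe the letters only.

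P2rx7, the ATP-gated channel that needs high ATP and is tied to T cell death and inflammasome activation, was lower in every library from the deficient diet than in either control library. It had 51.1, 42.8 and 52.0 CPM in KO_MCD, 26.6 and 71.1 CPM in WT_MCD, with 99.7 and 119.7 CPM in WT_NCD. The knockout libraries lay close together and inside the range of the WT_MCD pair. P2rx7 averaged 48.6 ± 5.08 CPM in KO_MCD (SD, n = 3), 48.9 ± 31.5 CPM in WT_MCD and 109.7 ± 14.2 CPM in WT_NCD (SD, n = 2 each). KO_MCD against WT_NCD gave a log2 fold change of -1.17 (SE 0.43, edgeR adjusted p = 0.509). WT_MCD against WT_NCD gave -1.17 (SE 0.48, edgeR adjusted p = 0.808). Neither comparison passed the threshold of 0.05 after adjustment over all 14784 genes tested. Between KO_MCD and WT_MCD the log2 fold change of P2rx7 was -0.01 (SE 0.43, edgeR adjusted p = 1).

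In WT_MCD against WT_NCD leaving out WT_MCD replicate 1 gave a P2rx7 log2 fold change of -0.64, and leaving out WT_MCD replicate 2 gave -2.04. Marker sums also differed by group. The summed T cell markers were 4194.3 to 4776.0 CPM in KO_MCD, 7130.5 and 3322.5 CPM in WT_MCD, with 5752.5 and 8845.1 CPM in WT_NCD. Set against these sums, P2rx7 had 12.2, 8.95 and 10.9 CPM per 1000 CPM of T cell markers in KO_MCD, 3.74 and 21.4 in WT_MCD, and 17.3 and 13.5 in WT_NCD. On that scale the KO_MCD libraries remained below both WT_NCD libraries, while the WT_MCD libraries lay below and above them. The 10 dendritic cell markers summed to 667.3 to 1563.8 CPM in KO_MCD, 625.7 and 1264.9 CPM in WT_MCD, with 340.3 and 241.5 CPM in WT_NCD. Clec9a was at 0 in both WT_NCD libraries and in KO_MCD replicate 2. The 8 NK and CD8 T cell markers summed to 226.4 to 303.5 CPM in KO_MCD, 229.1 and 418.6 CPM in WT_MCD, with 85.3 and 101.1 CPM in WT_NCD. Of these markers 3 were at 0 in each WT_NCD library and 2 in WT_MCD replicate 1. The 7 B and plasma cell markers summed to 315.7 to 839.7 CPM in KO_MCD, 311.4 and 535.4 CPM in WT_MCD, with 295.9 and 119.4 CPM in WT_NCD. These 3 sums were higher in every deficient-diet library than in either WT_NCD library, that of B and plasma cells by a narrow margin (311.4 against 295.9 CPM). Not every marker followed its sum. Bst2 of the dendritic cell list averaged 123.3 CPM in KO_MCD, 112.5 CPM in WT_MCD and 159.1 CPM in WT_NCD. Jchain of the B and plasma cell list had 0, 0 and 44.7 CPM in KO_MCD, 157.6 and 183.1 CPM in WT_MCD, with 146.7 and 13.8 CPM in WT_NCD. The sum of the 8 endothelial and stellate cell markers was lower in each deficient-diet library, like P2rx7. It was 71.8 to 126.9 CPM in KO_MCD, 103.9 and 87.9 CPM in WT_MCD, against 206.1 and 229.6 CPM in WT_NCD. Most of it was Pecam1, with 52.9 to 119.0 CPM in KO_MCD, 95.0 and 68.0 CPM in WT_MCD, against 173.0 and 222.4 CPM in WT_NCD. Directions were mixed among the rest. Cdh5 averaged 4.29 CPM in KO_MCD, 3.56 CPM in WT_MCD and 1.535 CPM in WT_NCD, while Col1a1 averaged 0, 0.971 and 3.71 CPM. Col3a1 and Lrat were at 0 throughout. The part of these cell types in the P2rx7 difference was not tested.

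P2rx4, a channel found on lysosomes and the cell surface of macrophages and T cells, took its highest value in WT_MCD replicate 2. It had 67.4, 62.7 and 37.1 CPM in KO_MCD, 35.98 and 134.5 CPM in WT_MCD, with 36.4 and 21.6 CPM in WT_NCD. WT_MCD replicate 1 was level with WT_NCD replicate 1, so these groups overlapped, while all KO_MCD libraries were above both WT_NCD libraries, the lowest by less than 1 CPM. P2rx4 averaged 85.2 ± 69.6 CPM in WT_MCD and 29.0 ± 10.4 CPM in WT_NCD (SD, n = 2 each). The log2 fold change between them was 1.55 (SE 0.66, edgeR adjusted p = 0.808). Without WT_MCD replicate 2 it was 0.31, and without WT_MCD replicate 1 it was 2.19. KO_MCD against WT_MCD gave -0.61 on the log2 scale (SE 0.58, edgeR adjusted p = 1), which turned to 0.63 without WT_MCD replicate 2. In KO_MCD against WT_NCD, with a KO_MCD mean of 55.8 ± 16.3 CPM (SD, n = 3), it was 0.94 (SE 0.60, edgeR adjusted p = 0.662). The 2 libraries with the highest P2rx4 were also the 2 with the highest macrophage and Kupffer cell sums, which were mostly Lyz2. The library with the lowest P2rx4 had the lowest sum. Csf1r and Cd68 had the same 2 highest libraries and the same lowest. Clec4f was instead highest in WT_NCD replicate 1 (248.9 CPM, against 110.7 CPM in WT_MCD replicate 2). C1qa was lower in KO_MCD replicate 1 (120.6 CPM) than in WT_NCD replicate 1 (586.7 CPM). The part of these cells in the P2rx4 differences was not tested.

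**Figure D1:**
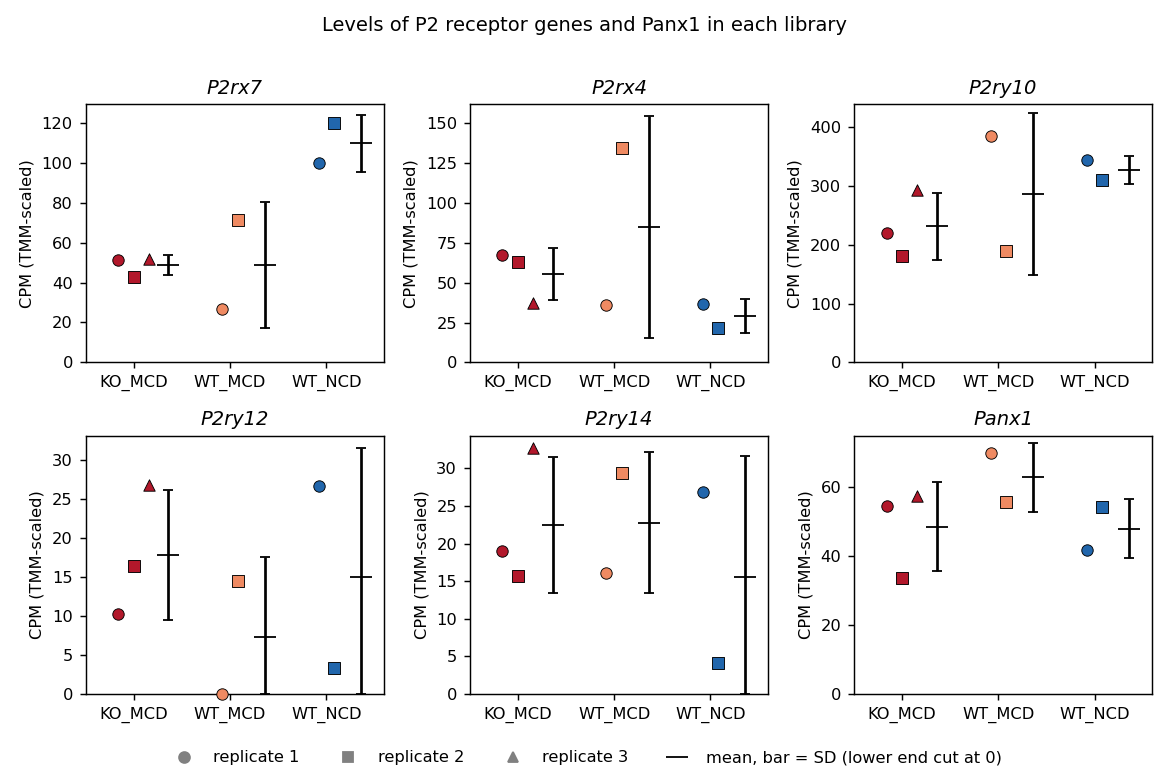
Levels of the 6 genes in each library (CPM, linear axis from 0). Points are libraries, and the bar beside each group is its mean with SD; P2rx7 has all 5 deficient-diet libraries at 71.1 CPM or less and both WT_NCD libraries at 99.7 CPM or more.

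**Figure D2:**
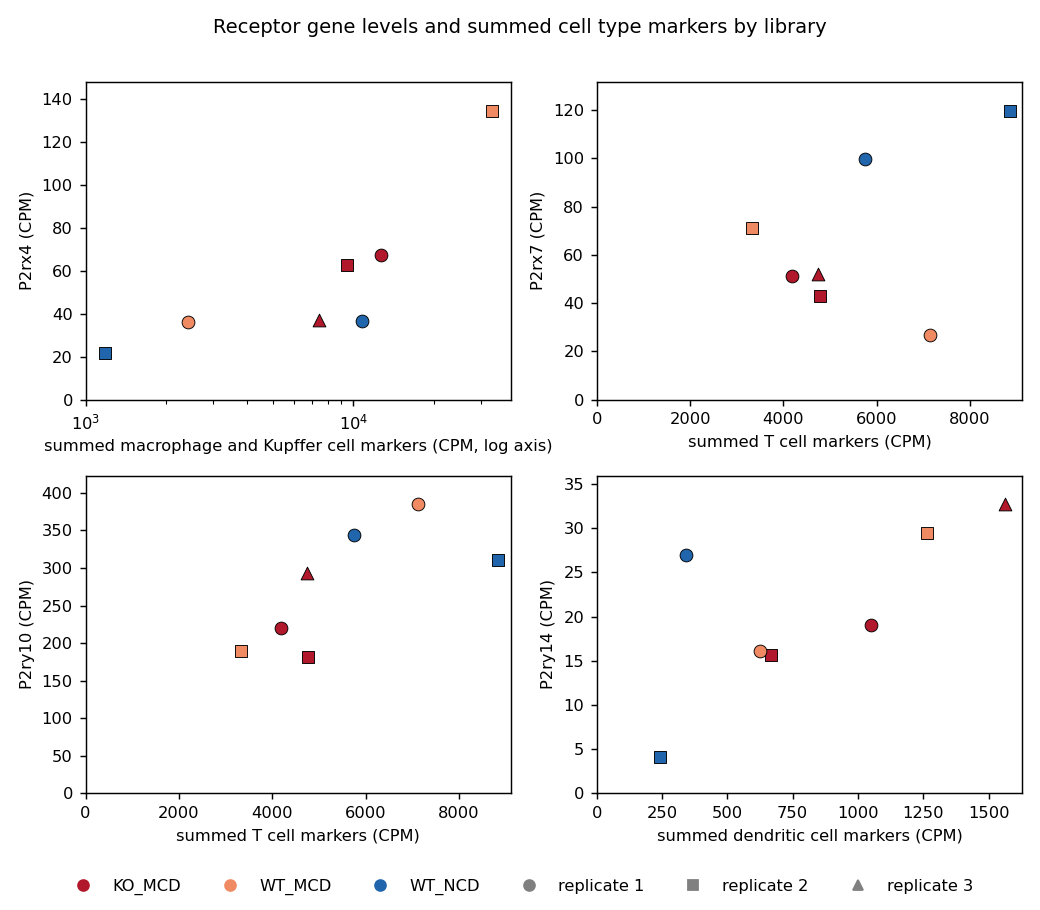
Each panel sets a gene's CPM against the summed CPM of a fixed marker list in the 7 libraries. WT_MCD replicate 2 holds both the highest P2rx4 level (134.5 CPM) and the highest macrophage and Kupffer cell sum (32876.1 CPM, of which Lyz2 was 26675.4 CPM).

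P2ry10 encodes a lymphocyte receptor that answers to lysophosphatidylserine rather than to nucleotides. It lies on chromosome X at 107088492 to 107104974 (ENSMUSG00000050921). It was the most abundant of the 6 genes in every library, with 220.7, 180.8 and 293.1 CPM in KO_MCD, 384.6 and 189.0 CPM in WT_MCD, with 343.6 and 310.4 CPM in WT_NCD. The WT_MCD libraries took the highest and the second lowest value, while the KO_MCD libraries were all below the WT_NCD pair. In KO_MCD against WT_NCD P2ry10 averaged 231.5 ± 56.9 CPM (SD, n = 3) and 327.0 ± 23.5 CPM (SD, n = 2), a log2 fold change of -0.50 (SE 0.37, edgeR adjusted p = 0.721). The log2 fold change was -0.31 (SE 0.37) in KO_MCD against WT_MCD and -0.19 (SE 0.40) in WT_MCD against WT_NCD, each with an edgeR adjusted p of 1. Per 1000 CPM of T cell markers P2ry10 had 52.6, 37.9 and 61.7 CPM in KO_MCD, 53.9 and 56.9 CPM in WT_MCD, with 59.7 and 35.1 CPM in WT_NCD, and the groups overlapped. P2ry10b, a neighbouring relative with 0.658 to 44.9 CPM, shares 3.79% of the 50-base stretches in P2ry10 transcripts, so a small part of the P2ry10 count is uncertain.

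P2ry12 and P2ry14 lie 62653 bases apart on the minus strand of chromosome 3, both inside the span of Med12l on the plus strand. P2ry12 (ENSMUSG00000036353, 59216272 to 59262871) encodes the ADP receptor of platelets and microglia. It had 10.3, 16.4 and 26.9 CPM in KO_MCD, 0 and 14.5 CPM in WT_MCD, with 26.7 and 3.35 CPM in WT_NCD. The value of 0 in WT_MCD replicate 1 allows up to 0.140 CPM (3 counts, covering counting error only), so libraries of the same group differed more than the group means did. The log2 fold change of P2ry12 was 1.30 (SE 1.79) in KO_MCD against WT_MCD, -1.05 (SE 1.90) in WT_MCD against WT_NCD and 0.25 (SE 1.72) in KO_MCD against WT_NCD, with edgeR adjusted p of 1, 1 and 0.996. In KO_MCD against WT_MCD, leaving out WT_MCD replicate 1, the library at 0, gave 0.33. Leaving out WT_MCD replicate 2 gave 11.58, a value that has WT_MCD at 0, depends on the prior count and is no bound, and limma voom gave 4.95 with all libraries. The 8 platelet and erythroid markers summed to 5.39 to 38.7 CPM in KO_MCD, 26.9 and 341.1 CPM in WT_MCD, with 58.1 and 53.7 CPM in WT_NCD. In WT_MCD replicate 2 most of the sum was erythroid, with Hba-a1 at 220.0, Hbb-bs at 67.4 and Alas2 at 37.8 CPM. Of the 5 platelet markers among the 8, Itga2b, Gp1ba and Gp9 were at 0 in both WT_NCD libraries, while Pf4 had 6.98 and 1.89 CPM and Ppbp 0 and 0.558 CPM there. Pf4 had 2.23, 0.725 and 5.19 CPM in KO_MCD and 1.255 and 12.8 CPM in WT_MCD. The other platelet markers were at 0 in KO_MCD replicate 3, the library with the highest P2ry12. The part of platelets in the P2ry12 level was not tested.

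P2ry14 (ENSMUSG00000036381, 59113855 to 59153618) encodes a receptor for UDP-glucose. It had 19.0, 15.6 and 32.7 CPM in KO_MCD, 16.1 and 29.4 CPM in WT_MCD, with 26.9 and 4.08 CPM in WT_NCD. All but WT_NCD replicate 2 lay within about the same range, and the groups overlapped. P2ry14 had a log2 fold change of 0.56 (SE 0.87, edgeR adjusted p = 1) in WT_MCD against WT_NCD and 0.53 (SE 0.80, edgeR adjusted p = 0.931) in KO_MCD against WT_NCD, and became 2.48 and 2.45 without WT_NCD replicate 1 and -0.23 and -0.26 without WT_NCD replicate 2. Between KO_MCD and WT_MCD it was -0.02 (SE 0.79, edgeR adjusted p = 1). WT_NCD replicate 2 was also the library with the lowest sums of macrophage and of dendritic cell markers, whose part in the P2ry14 level was not tested. Med12l had 13.02, 2.45 and 8.67 CPM in KO_MCD, 1.30 and 2.05 CPM in WT_MCD, with 5.82 and 1.20 CPM in WT_NCD. Only 9 exonic bases of P2ry12 and 0 of P2ry14 are shared with Med12l, and the strand setting of the counting is not given.

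Panx1 (ENSMUSG00000031934, chromosome 9, 15002128 to 15045478, minus strand) encodes pannexin-1, whose channel releases ATP from activated T cells and from dying cells. Its level, like that of P2ry10, varied little, at 54.6, 33.7 and 57.4 CPM in KO_MCD, 70.0 and 55.7 CPM in WT_MCD, with 41.9 and 54.2 CPM in WT_NCD. Its highest library was 2.08 times its lowest, against 2.13 times for P2ry10, 4.49 times for P2rx7, 6.21 times for P2rx4 and 8.01 times for P2ry14, while P2ry12 had a library at 0. The WT_MCD pair stood above the WT_NCD pair by a narrow margin, and KO_MCD overlapped both. Panx1 averaged 62.9 ± 10.1 CPM in WT_MCD and 48.0 ± 8.71 CPM in WT_NCD (SD, n = 2 each), a log2 fold change of 0.39 (SE 0.39, edgeR adjusted p = 0.957). The log2 fold change was -0.37 (SE 0.36) in KO_MCD against WT_MCD and 0.01 (SE 0.36) in KO_MCD against WT_NCD, each with an edgeR adjusted p of 1.

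Levels of different genes were compared per kilobase of annotated exon, averaged over the 7 libraries. P2ry10 stood first with a mean of 92.1 CPM per kilobase, and its lowest library (60.6) was above the highest value of any of the other genes (20.1, P2rx7 in WT_NCD replicate 2). P2rx7 (11.1), Panx1 (8.71), P2rx4 (8.05) and P2ry12 (5.51) followed, and each overlapped its neighbour in this order. P2ry14 was last with 1.86 CPM per kilobase over an annotated exon length of 11059 bases, and its values overlapped those of P2ry12. Within KO_MCD the means were 77.7 ± 19.1 for P2ry10, 8.14 ± 0.851 for P2rx7, 8.05 ± 2.15 for Panx1, 7.94 ± 2.32 for P2rx4, 7.02 ± 3.29 for P2ry12 and 2.03 ± 0.817 CPM per kilobase for P2ry14 (SD, n = 3). P2rx7, Panx1, P2rx4 and P2ry12 thus stood within their spread in the knockout, while in WT_NCD P2rx7 (16.7 and 20.1 CPM per kilobase) was above Panx1, P2rx4 and P2ry12 in both libraries.

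**Figure D3:**
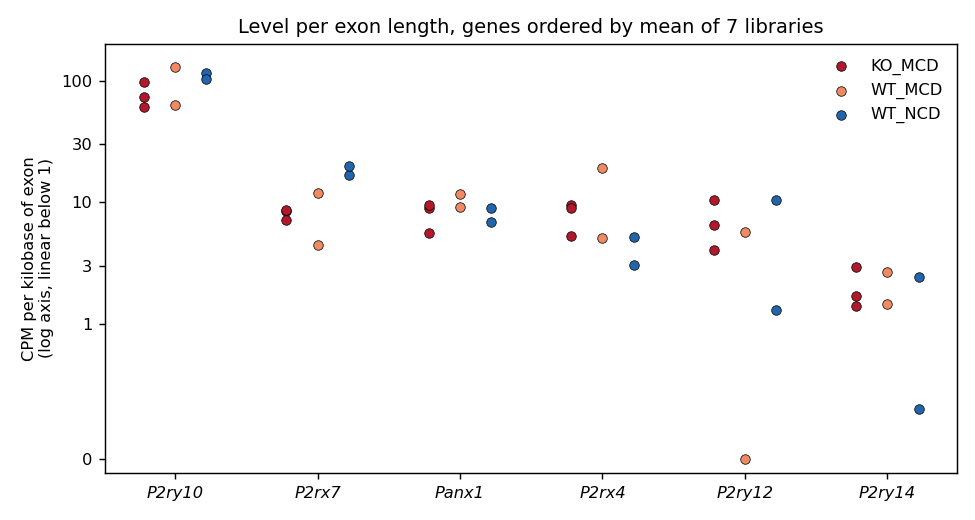
CPM per kilobase of annotated exon for each gene and library, on an axis that is logarithmic above 1 and linear below. P2ry10 lies at 60.6 or more in every library and every other gene at 20.1 or less.

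Read by comparison, no member passed the threshold of 0.05 after adjustment. In WT_MCD against WT_NCD, which asks how the sorted cells differ on the deficient diet, 0 of 14784 genes (0%) passed, with a smallest adjusted p of 0.490. At an unadjusted p under 0.05 were 2 of the 6 members, where 6.00% of all genes were. P2rx4 was the 1 higher member (3.96% of all genes) and P2rx7 the 1 lower (2.04%). The groups did not overlap for 2 members, where this held for 31.6% of all genes. Panx1 was the 1 higher member (16.8% of all genes) and P2rx7 the 1 lower (14.8%). The median log2 fold change was 0.10 over the members and 0.04 over all genes.

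KO_MCD against WT_MCD asks what the lack of CD73 changes on the deficient diet. Here 0 of 14784 genes (0%) passed, 0 of the 6 members had an unadjusted p under 0.05, against 3.25% of all genes (1.20% higher and 2.04% lower). All 6 members had overlapping groups, while 18.0% of all genes did not (8.37% higher and 9.66% lower). The members' median log2 fold change was -0.17, and -0.03 over all genes. Standard errors of 0.36 to 0.43 for P2rx7, P2ry10 and Panx1, 0.58 for P2rx4, 0.79 for P2ry14 and 1.79 for P2ry12 leave sizeable differences undetected, so the genotypes were not shown to be alike.

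KO_MCD against WT_NCD combines diet and genotype, and shares a group with each of the other comparisons. Again 0 of 14784 genes (0%) passed. P2rx7, lower, was the 1 member of 6 with an unadjusted p under 0.05, where 8.97% of all genes were (4.72% higher and 4.25% lower). The groups did not overlap for 3 of the 6, 1 higher (P2rx4) and 2 lower (P2rx7 and P2ry10), where 26.1% of all genes did not overlap (13.4% higher and 12.8% lower). The median log2 fold change was 0.13 over the members and 0.06 over all genes.

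**Figure D4:**
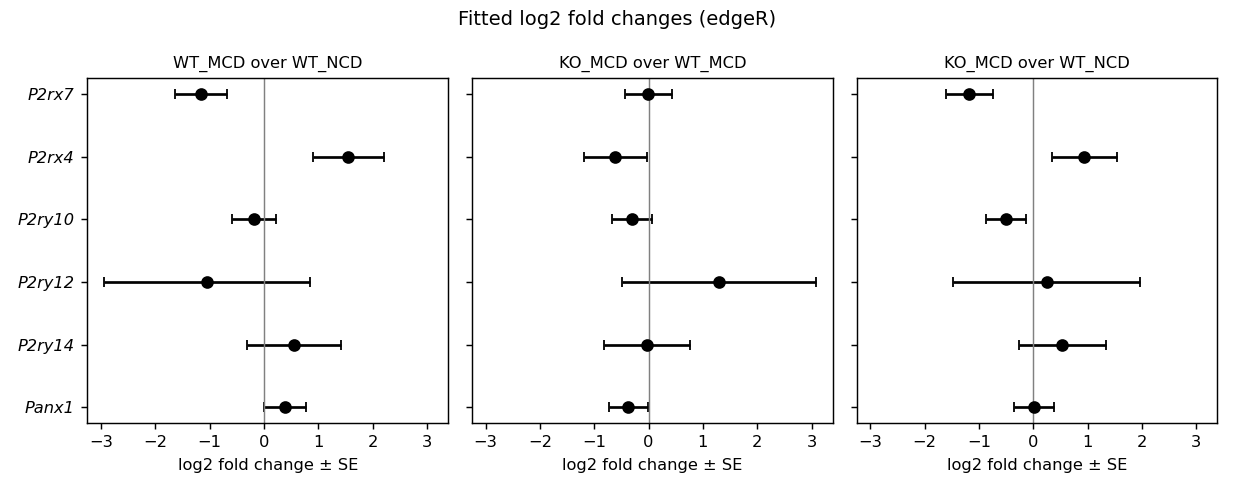
Log2 fold changes of the 6 genes with their standard errors in the 3 comparisons (edgeR). P2rx7 sits at -1.17 in both comparisons with WT_NCD and at -0.01 in KO_MCD over WT_MCD.

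**Figure D5:**
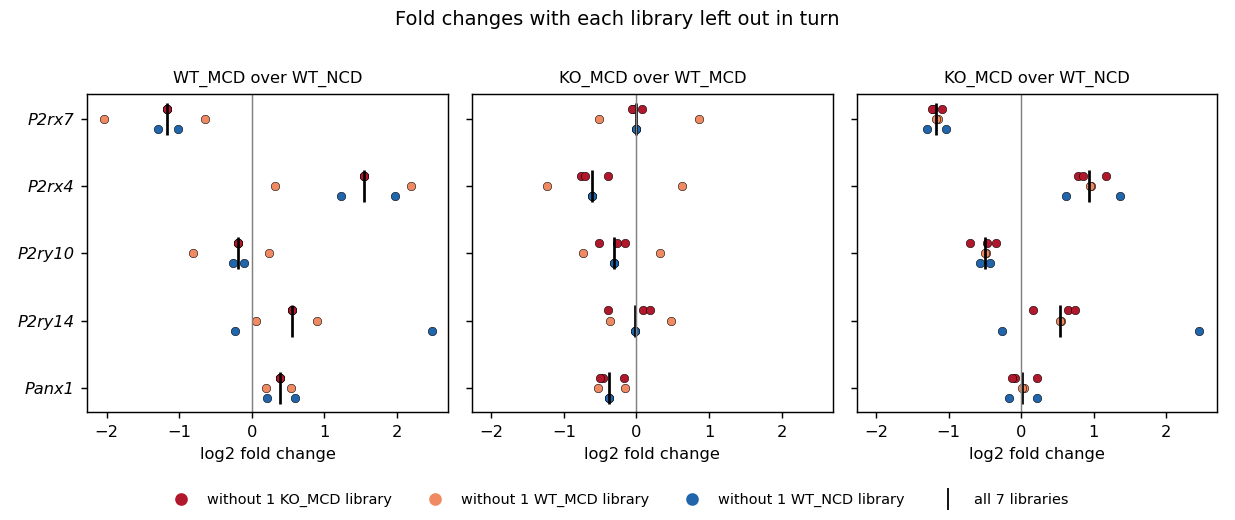
Log2 fold changes of 5 genes with all 7 libraries (vertical bars) and with each library left out (points); P2ry12 is not drawn because leaving out WT_MCD replicate 2 leaves that group at 0. P2rx7 stays below 0 in both comparisons with WT_NCD, while P2rx4 in KO_MCD over WT_MCD runs between -1.23 and 0.63.

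The genes most like each member across the 7 libraries were found by Pearson's r of log2 CPM among 9104 tested protein-coding genes whose mean reached 5 CPM, leaving out Gm and Rik names. With so many candidates and so few libraries, which share depth and cell makeup, these r values are a description. P2rx7 was followed most closely by Kif4 (r = 0.973), a kinesin of dividing cells, Tuba1c (r = 0.973), a tubulin, and Gpr18 (r = 0.962), a G protein-coupled receptor of lymphocytes. Kif4 had 15.2, 13.5 and 19.4 CPM in KO_MCD, 3.49 and 18.5 CPM in WT_MCD, with 55.0 and 84.0 CPM in WT_NCD. P2rx4 was followed by Skap2 (r = 0.996), an adaptor of integrin signalling in myeloid cells, Myof (r = 0.983) and Gclm (r = 0.982), a subunit of the enzyme that starts glutathione synthesis. Skap2 had 245.5, 271.8 and 156.7 CPM in KO_MCD, 153.9 and 509.7 CPM in WT_MCD, with 152.0 and 98.7 CPM in WT_NCD. P2ry10 was followed by Rpe (r = 0.978), Stip1 (r = 0.977), a cochaperone, and Zfp748 (r = 0.961), P2ry12 by Fam234b (r = 0.990), Dclre1b (r = 0.985) and Slc10a3 (r = 0.973), P2ry14 by Slamf9 (r = 0.992), Bloc1s4 (r = 0.989) and Qpct (r = 0.983), and Panx1 by Nhlrc2 (r = 0.987), Crebl2 (r = 0.985) and Nrn1 (r = 0.980). Among the 6 members themselves r ran from -0.79 for P2rx4 with P2ry10 to 0.57 for P2rx4 with P2ry14, and the neighbours P2rx4 and P2rx7 had -0.21 while P2ry12 and P2ry14 had 0.37.

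Other genes of the pathway were read from lists set by function, and none passed the threshold in any comparison. Of the other 5 P2X subunits only P2rx1 had counts enough to be tested. P2rx2 and P2rx6 were at 0 in all libraries, P2rx3 was counted in KO_MCD replicate 2 alone and P2rx5 in WT_MCD replicate 1 alone, and P2rx1 had 10.2, 0 and 0 CPM in KO_MCD, 2.05 and 9.61 CPM in WT_MCD and 0 in both WT_NCD libraries. P2rx4 and P2rx7 were thus the 2 P2X genes counted in every library. Of the other 5 P2Y receptors 4 were tested, with 0 past the threshold. All 4 were fitted above 0 in WT_MCD against WT_NCD and below 0 in KO_MCD against WT_MCD. These comparisons share WT_MCD, so their signs are not independent, and the share of all genes with such signs was not counted. P2ry6, the UDP receptor of macrophages, had 46.7, 40.2 and 65.1 CPM in KO_MCD, 13.5 and 190.9 CPM in WT_MCD, with 55.4 and 3.87 CPM in WT_NCD. P2ry13, an ADP receptor, had 22.5, 20.1 and 23.9 CPM in KO_MCD, 17.3 and 67.2 CPM in WT_MCD, with 22.8 and 8.50 CPM in WT_NCD. Both had their highest value in the library with the highest macrophage sum and their lowest in the library with the lowest. In WT_MCD replicate 1 both were below every KO_MCD library.

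The relatives of P2ry10 and P2ry12 were led by Gpr171 and Gpr174, a lysophosphatidylserine receptor of lymphocytes. Gpr171 had 181.4 to 326.3 CPM in KO_MCD, 245.3 and 202.7 CPM in WT_MCD, with 195.6 and 146.8 CPM in WT_NCD. Gpr174 had 86.5 to 109.8 CPM in KO_MCD, 171.5 and 61.9 CPM in WT_MCD, with 131.7 and 161.2 CPM in WT_NCD. Of the 4 tested relatives 2 were fitted above 0 and 2 below in WT_MCD against WT_NCD.

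Among other routes of ATP release, 8 of 12 genes were tested, and the volume-regulated channel subunits Lrrc8c and Lrrc8a led. Lrrc8c had 104.6 to 179.6 CPM in KO_MCD, 189.9 and 164.4 CPM in WT_MCD, with 122.2 and 152.8 CPM in WT_NCD. Lrrc8a had 50.2, 78.3 and 71.3 CPM in KO_MCD, all below 116.0 and 103.6 CPM in WT_MCD, with 105.5 and 93.8 CPM in WT_NCD, with a log2 fold change of -0.72 (SE 0.29, edgeR adjusted p = 1) in KO_MCD against WT_MCD. For 9.66% of all genes every KO_MCD library was likewise below both WT_MCD libraries. The other pannexins were nearly absent, with Panx3 at 0 in all libraries and Panx2 counted in WT_MCD replicate 1 alone.

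Of the genes that act with P2X7 at the membrane, 7 were tested. Adam10, a sheddase, had 145.8 to 181.2 CPM in KO_MCD, 210.6 and 339.1 CPM in WT_MCD, with 133.6 and 213.4 CPM in WT_NCD. Art2b, whose enzyme modifies and opens mouse P2X7 in the presence of NAD, was picked after its values were seen. It had 55.1, 81.9 and 23.9 CPM in KO_MCD, 33.1 and 20 CPM in WT_MCD, with 54.6 and 233.2 CPM in WT_NCD, and its log2 fold change in WT_MCD against WT_NCD was -2.44 (SE 0.81, edgeR adjusted p = 0.775).

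All 7 inflammasome genes were tested, and Il1b and Gsdmd led. Il1b had 349.3, 172.5 and 99.5 CPM in KO_MCD, 33.2 and 640.7 CPM in WT_MCD, with 328.8 and 8.59 CPM in WT_NCD, and the 7 libraries fell in the same order by Il1b as by the macrophage sum. Gsdmd, the pore protein of pyroptosis, had 160.8 to 245.0 CPM in KO_MCD, 128.6 and 213.8 CPM in WT_MCD, with 130.9 and 163.3 CPM in WT_NCD. Of the 6 G protein subunits used by P2Y receptors, 5 were fitted above 0 in WT_MCD against WT_NCD. In KO_MCD against WT_MCD 5 were fitted below 0. Some of these fits were close to 0, such as Gnai2 at 0.04 (SE 0.36) in WT_MCD against WT_NCD. Both comparisons use WT_MCD, and the share of all genes with such signs was not counted. Gnai3, which lowers cyclic AMP, had 279.4 to 320.9 CPM in KO_MCD, 402.4 and 445.5 CPM in WT_MCD, with 342.0 and 285.7 CPM in WT_NCD. Gna13 had 134.3 to 155.1 CPM in KO_MCD, 203.6 and 133.3 CPM in WT_MCD, with 228.2 and 113.5 CPM in WT_NCD.

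Downstream of calcium entry, Nfatc1, a factor switched on by calcineurin, had 293.0, 184.8 and 287.9 CPM in KO_MCD, 324.5 and 260.2 CPM in WT_MCD, with 163.4 and 170.3 CPM in WT_NCD. It was higher in every deficient-diet library, with log2 fold changes of 0.81 (SE 0.32, edgeR adjusted p = 0.808) in WT_MCD against WT_NCD and 0.61 (SE 0.30, edgeR adjusted p = 0.585) in KO_MCD against WT_NCD. Groups were separated in this direction for 16.8% and 13.4% of all genes in these comparisons. Stim1, the calcium sensor of the endoplasmic reticulum, had 42.9 to 104.6 CPM in KO_MCD, 99.6 and 69.2 CPM in WT_MCD, with 110.1 and 82.1 CPM in WT_NCD. Of the genes that supply or remove UDP-glucose and lysophosphatidylserine, Abhd12, a lysophosphatidylserine lipase, had 83.7 to 95.0 CPM in KO_MCD, 66.9 and 256.4 CPM in WT_MCD, with 111.7 and 36.5 CPM in WT_NCD. Ugp2, which makes UDP-glucose, had 48.1 to 103.5 CPM in KO_MCD, 100.8 and 112.1 CPM in WT_MCD, with 106.5 and 81.1 CPM in WT_NCD.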

How the data were processed

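The authors deposited a table of raw read counts with 53465 Ensembl gene IDs. The submitters' processing notes name HISAT2 2.1.0 and GRCm38, while the counting tool, annotation and strand setting are not given in any source used here. Columns were matched to samples by title. Symbols, coordinates and exon lengths came from GENCODE M21 (GRCm38), which held 53360 of the IDs, and promoter sequences from RefSeq GRCm38.p6. For reads shared with other genes, 50-base stretches of each member's transcripts were searched in all other transcripts.

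The test was edgeR's (4.0.16, R 4.3.3; TMM, filterByExpr with a minimum count of 10, quasi-likelihood test, 1 coefficient per group, all 7 libraries), with Benjamini-Hochberg adjustment over 14784 genes and a threshold of 0.05. Standard errors were derived from that test, as the absolute log2 fold change divided by the square root of its F statistic. Log2 CPM for r used a prior count of 2. Total counts were 19731501 to 24398738 per library, and the coefficient of variation between libraries of a group was 91.3%. The code was tested on simulated data. The named genes were the 6 members, Nt5e, the 2 most abundant of each pathway list, genes overlapping a member and the 3 most like each member. A gene that this rule names is not reported here. P2ry10b, P2rx2, P2rx3, P2rx6, the marker genes named, Panx2, Panx3, Art2b and Slc17a9 were added after their values were seen. The members and lists were chosen with earlier results of these data known. Replicates of a group differed by more than sampling noise, with a chi-square of 88.7 to 320.1 for each degree of freedom. Alternatives were other scalings and filters, DESeq2 1.42.0, limma 3.58.1 voom, a replicate block, the 2 groups alone and each library left out. A crossed block and levels per T cell marker were added after seeing the data.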

Additional observations from a re-analysis of the deposited data

How the results depend on the processing

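No member passed the threshold under any alternative tried, and the smallest adjusted p of a member was 0.218 (P2rx7, KO_MCD against WT_NCD, DESeq2). Counts of all genes past the threshold were 0 except with no low-count filter (54, 1 and 140 in WT_MCD against WT_NCD, KO_MCD against WT_MCD and KO_MCD against WT_NCD) and with DESeq2 (304, 42 and 552), and the cause was not tested. Of 156 member values outside the leave-one-out fits, 147 kept their sign. The 9 that turned were P2rx7 in KO_MCD against WT_MCD (0.011 with DESeq2, 0.010 with its size factors in edgeR, 0.15 by total counts, 0.18 with voom, 0.071 with the replicate block), P2ry14 there (0.12 by total counts), and in KO_MCD against WT_NCD P2ry12 (-0.60 with the block) and Panx1 (-0.026 with voom, -0.16 with the block). Leaving out 1 library turned 16 of 126 values. Their log2 ranges in KO_MCD against WT_MCD were -1.23 to 0.63 (P2rx4), -0.51 to 0.87 (P2rx7), -0.73 to 0.33 (P2ry10) and -0.40 to 0.47 (P2ry14). In KO_MCD against WT_NCD they were -0.58 to 2.41 (P2ry12), -0.26 to 2.45 (P2ry14) and -0.16 to 0.22 (Panx1). In WT_MCD against WT_NCD they were -0.81 to 0.24 (P2ry10), -11.32 to 1.12 (P2ry12, whose lowest value has WT_MCD at 0 and depends on the prior count) and -0.23 to 2.48 (P2ry14). A lone library was assumed to vary like the other groups. The replicate block gave 0 genes past the threshold in each comparison. Only KO_MCD has a replicate 3, so the block gave that library its own coefficient. It therefore did not inform the fold changes of KO_MCD in the block fit. Deviations from the group mean had r = -0.10 between same-numbered libraries of WT_MCD and WT_NCD and 0.10 between crossed numbers. With 2 libraries a group these values must be equal and opposite, and both were near 0. A crossed block on these groups gave 0 genes, as did the same-number block. The pairing is a shared number only. With 2 or 3 libraries a group, fold changes with standard errors near 0.4 or more limit what could be called.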

Other observations

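Slc17a9 encodes the vesicular nucleotide transporter, which loads ATP into vesicles for release. It had 20.3, 29.4 and 15.8 CPM in KO_MCD, 33.0 and 27.9 CPM in WT_MCD, with 57.4 and 57.7 CPM in WT_NCD, and it was picked after its values were seen. Every deficient-diet library was below both WT_NCD libraries, with log2 fold changes of -1.40 (SE 0.38, edgeR adjusted p = 0.401) in KO_MCD against WT_NCD and -0.92 (SE 0.43, edgeR adjusted p = 0.808) in WT_MCD against WT_NCD. Groups were separated in this direction for 12.8% and 14.8% of all genes in these comparisons. P2ry10b had 21.4, 44.7 and 44.9 CPM in KO_MCD, 14.9 and 39.3 CPM in WT_MCD, with 0.658 and 16.5 CPM in WT_NCD, with a log2 fold change of 2.11 (SE 1.17, edgeR adjusted p = 0.616) in KO_MCD against WT_NCD.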
